A study of Mus musculus with 26 samples.

Results

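The 10 genes described here are markers and products of gut macrophages, read in libraries of sorted T cells: C1qa, C1qb, C1qc, Ccl24, Cx3cr1, Csf1r, Mrc1, Cd163, Adgre1 and Timd4. They were found by exact gene name among the 25814 genes of each deposited table, and all 10 had a row. The genes were selected on results of these libraries, and the exon read difference between the diets is counted among the values that chose them. The levels and differences of the 10 genes are therefore given as a description with their spread. No p-value of a single one of them is given, and counts of calls among them support nothing. The series asks how food antigen affects T cells of the Peyer's patch, a lymphoid organ of the small intestine, in C57Bl/6 mice.

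The 26 libraries fall into 4 groups. CD4+ T cells came from mice on a conventional diet (n = 6) or on an elemental diet (n = 6), which supplies free amino acids in place of protein. A second pair, T cells sorted as CD44+ or as CD44- (n = 7 each), came from mice on the conventional diet. T cells that have met antigen carry more CD44, a receptor for hyaluronan. Library preparation of the CD4+ groups started with 22 ng of RNA and a standard kit, and the CD44 libraries from 1 ng with a low-input kit, so sorted population, RNA amount and kit cannot be told apart between the pairs. The sources used here give no age or sex for any group, and do not say whether CD44 cells were also gated on CD4 or whether libraries of a group came from separate animals. The p-values then measure only the spread between these libraries, part of which may be technical. The smallest CD4+ library held 16401589 exon reads and the largest 25415205. For the CD44 libraries these limits were 7180390 and 13378353.

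Macrophages engulf dying cells and particles, and in the gut they are replaced from blood monocytes or persist as long-lived resident cells. C1QA, C1QB and C1QC are the chains of C1q, the recognition unit that starts the classical complement pathway, and tissue macrophages are its main makers. CSF1R carries the survival signal of the lineage, CX3CR1 binds fractalkine, and CCL24 is a chemokine that draws eosinophils through CCR3. MRC1 (CD206), CD163 and TIM-4, the product of Timd4, are uptake receptors, and ADGRE1 is the surface antigen F4/80. In mice some long-lived gut macrophages carry both TIM-4 and CD4 on their surface.

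The 3 C1q genes lie side by side on the minus strand of chromosome 4 in GRCm38. C1qb occupies 136880129 to 136886187, C1qc 136889804 to 136893065 and C1qa 136895917 to 136898803, each with 3 exons. Gaps of 3616 and 2851 bases separate them, and the cluster spans 18675 bases. The promoters of C1qb and C1qc are shown because neighbouring genes are read together below. That of Mrc1 is shown because this gene had different levels relative to C1qa in the diet pair and the CD44 pair. RefSeq promoter windows (GRCm38.p6) were matched by symbol for 6 of the 10 genes, and C1qa had no window. The letters run 5′ to 3′ on the gene's strand and stop at or before the first base of the gene in the deposited tables. They come from chr4:136886201-136886450 (minus strand, C1qb), chr4:136893066-136893164 (minus strand, C1qc) and chr2:14229164-14229391 (plus strand, Mrc1). Capitals mark GAGGAAG, a core of sites of the macrophage factor PU.1, on either strand.
C1qb: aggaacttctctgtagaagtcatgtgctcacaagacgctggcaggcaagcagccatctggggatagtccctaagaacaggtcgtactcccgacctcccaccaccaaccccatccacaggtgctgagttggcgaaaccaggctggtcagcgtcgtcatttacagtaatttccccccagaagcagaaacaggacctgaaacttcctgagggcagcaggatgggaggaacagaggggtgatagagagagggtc
C1qc: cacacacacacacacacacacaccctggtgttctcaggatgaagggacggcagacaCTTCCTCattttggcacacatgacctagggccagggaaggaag
Mrc1: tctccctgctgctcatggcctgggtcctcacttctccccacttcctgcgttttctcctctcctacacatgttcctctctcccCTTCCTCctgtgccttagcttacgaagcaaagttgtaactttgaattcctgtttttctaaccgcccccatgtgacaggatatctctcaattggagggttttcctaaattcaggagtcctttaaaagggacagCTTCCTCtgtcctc
In the 250 bases before the start, the PU.1 core was found at 1 place for C1qc and at 2 places for Mrc1, and it was in 10.6% of all 32851 such windows. The C1qb, Cx3cr1, Cd163 and Timd4 windows did not hold it, so it was in 2 of 6.

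On the elemental diet, C1q reads were about 4 times as abundant in the CD4+ T cell libraries. Levels are counts per one-millionth share of the TMM-scaled exon read total of the genes tested in a pair of groups (CPM). That total covered 11938 genes in the diet pair and 8343 in the CD44 pair, so CPM of the 2 pairs have different denominators. C1qa ranged from 29.0 CPM through a median of 50.9 to 62.2 CPM in the conventional libraries. It ranged from 120.3 through 188 to 377 CPM in the elemental libraries. Every elemental library lay above every conventional one. C1qb ran from 12.6 to 29.5 CPM (median 27.9) on the conventional diet and from 54.1 to 163 CPM (median 85.6) on the elemental diet. C1qc ran from 19.0 to 37.9 CPM (median 28.5) and from 68.5 to 218 CPM (median 107). Neither gene overlapped between the diets. The log2 fold changes (elemental minus conventional, ± SE) were 2.17 ± 0.31 for C1qa, 1.97 ± 0.32 for C1qb and 2.05 ± 0.30 for C1qc. In these bulk libraries, fewer cells of a type and less RNA per cell cannot be told apart.

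Ccl24, the eosinophil chemokine, had the largest difference of the 10 genes. It was barely read on the conventional diet, with 6 to 35 reads per library, and had 93 to 387 reads on the elemental diet. In CPM this was 0.254 to 1.76 (median 0.928) against 5.79 to 19.7 (median 12.2). The groups did not overlap, and the log2 fold change was 3.66 ± 0.41, a fold of 12.6. Relative to C1qa, with both counted per kilobase of exon in the same library, Ccl24 stood at 1.52 ± 0.728% (SD, n = 6) on the conventional and 4.62 ± 0.883% (n = 6) on the elemental diet. The lowest elemental value (3.75%) lay above the highest conventional one (2.76%). Relative to C1qa, Cx3cr1 was also apart but in the other direction, at 2.12 to 3.47% on the conventional and 1.38 to 1.95% on the elemental diet. Ccr3, which encodes the CCL24 receptor, had 2 to 15 reads per conventional and 3 to 15 reads per elemental library and was too low to be tested.

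The receptors of the lineage were also higher on the elemental diet, by smaller factors. Csf1r, the growth factor receptor, ran from 12.2 to 20.8 CPM (median 17.2) on the conventional and from 22.3 to 100.1 CPM (median 52.95) on the elemental diet. Cx3cr1 ran from 3.98 to 6.26 CPM (median 4.84) and from 7.41 to 22.9 CPM (median 13.1). Adgre1, the F4/80 gene, ran from 5.77 to 9.33 CPM (median 7.73) and from 13.5 to 48.5 CPM (median 20.7). None of these receptor genes overlapped between the diets. Their log2 fold changes were 1.67 ± 0.28, 1.56 ± 0.25 and 1.74 ± 0.31, in the order given. The annotated span of Cx3cr1 (chromosome 9, 119901616 to 120069879) covers or overlaps 5 other genes, among them Csrnp1 and Gorasp1, and 15.9% of its gene reads on the conventional and 4.76% on the elemental diet lay in introns. Over all genes, the intron share of a library was 3.97 to 4.61% on the conventional and 3.33 to 4.08% on the elemental diet. Only exon reads were counted here. Exon reads of Csf1r, on chromosome 18 from 61105572 to 61132149, were unique to it in 94.2% of cases on the conventional and 97.7% on the elemental diet, and the gene overlaps Hmgxb3 on the opposite strand.

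The uptake receptors divided by level. Timd4, which encodes a receptor for phosphatidylserine on dying cells, ran from 0.257 to 2.04 CPM (median 0.889) on the conventional and from 1.68 to 7.14 CPM (median 3.70) on the elemental diet. The groups overlapped at their edges, and the log2 fold change was 1.96 ± 0.45. Mrc1, the mannose receptor gene, was at 0 to 2.10 CPM (median 0.984) and 1.03 to 3.93 CPM (median 2.14). Its groups overlapped, with a log2 fold change of 1.10 ± 0.59. The 0 was conventional replicate 6, where 0 reads allow up to 0.182 CPM, counting error only. Cd163, the haemoglobin scavenger receptor gene, had 0 to 7 reads per conventional and 1 to 23 reads per elemental library and was too low to be tested.

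**Figure D1:**
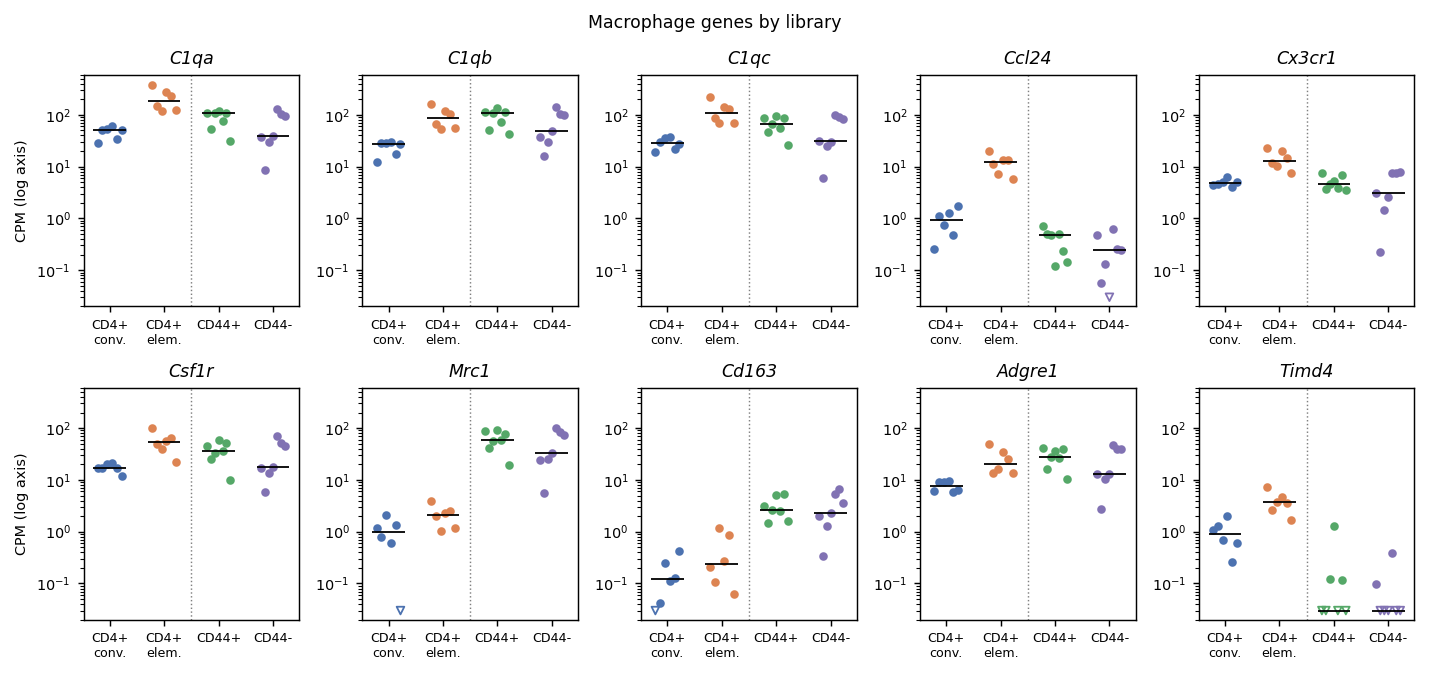
CPM of each gene in every library (points, in replicate order; log axis), with the group median as a bar; open triangles stand for 0 reads and are drawn at 0.03. A dotted line separates the pairs of groups that used different kits. C1qa runs from 29.0 to 62.2 CPM on the conventional and from 120.3 to 377 CPM on the elemental diet, and Mrc1 lies at or below 3.93 CPM in the CD4+ libraries.

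Of the 9 genes that passed the filter on low counts, 8 were called higher on the elemental diet (edgeR, Benjamini-Hochberg adjusted p under 0.05) and 0 lower. In this comparison 17.4% of the 11938 genes tested were called in either direction, with 9.68% called higher and 7.75% called lower. The gene tested but not called was Mrc1. The groups did not overlap for 7 of the 10 genes, against 4.82% of tested genes that were higher without overlap. The genes were chosen with this comparison known, so nothing is read from these counts. The median log2 fold change of the 9 genes was 1.96, and that of all tested genes was -0.01. In an edgeR fit of all 4 groups together, 0 of the 10 genes were called and 8 had an unadjusted p under 0.05.

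**Figure D2:**
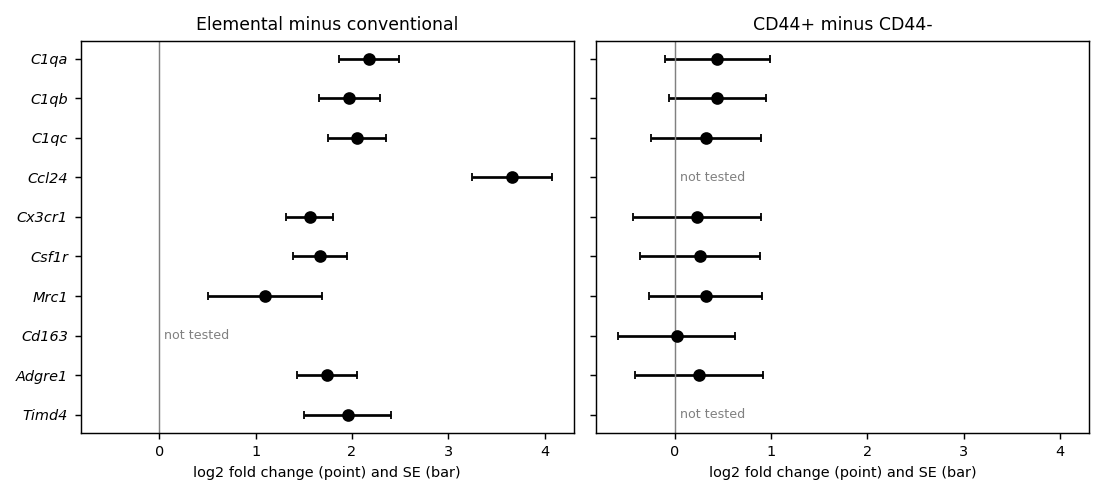
Log2 fold change (points) and SE (bars) of each gene for elemental minus conventional diet (left) and CD44+ minus CD44- cells (right). On the left Ccl24 lies at 3.66 and the other tested genes between 1.10 and 2.17; on the right all tested genes lie between 0.02 and 0.44 with bars that reach or cross 0.

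The libraries of a diet did not have the same amount of these transcripts. Elemental replicate 1 was highest for 9 of the 10 genes, all but Cd163. Elemental replicate 3 was lowest for the C1q genes and Mrc1, and replicate 6 for the other 6 genes. Within the conventional group replicate 4 was highest for 7 genes, and replicate 1 was lowest for 5, among them the C1q genes. The highest elemental library had 3.14 times the C1qa level of the lowest, and the highest conventional library had 2.14 times that of the lowest. The shares of the chains moved less, although that of C1qa did not overlap between the diets (47.9 to 50.9% against 51.5 to 53.1%). Per kilobase, C1qa made up 49.6 ± 1.24% of C1q reads on the conventional and 52.2 ± 0.523% on the elemental diet, C1qb 24.1 ± 2.06% and 22.4 ± 0.423%, and C1qc 26.3 ± 1.98% and 25.4 ± 0.765% (SD, n = 6 each).

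The order of the 10 genes by reads per kilobase differed between the diets mainly in Ccl24. On the conventional diet C1qa led with 45.1 ± 12 CPM per kilobase, followed by C1qc (23.8 ± 6.23) and C1qb (22.1 ± 6.57). These neighbours overlapped in their ranges, while C1qb lay above Csf1r (3.56 ± 0.636) in all libraries without overlap. Adgre1, Cx3cr1, Ccl24, Timd4, Mrc1 and Cd163 followed, and among neighbours in this order of 6 only Adgre1 and Cx3cr1 did not overlap. On the elemental diet Ccl24 (9.13 ± 3.85) stood between Csf1r (11.3 ± 5.41) and Adgre1 (7.84 ± 4.36), and overlapped both. Timd4 (1.80 ± 0.872) lay above Mrc1 (0.399 ± 0.195) without overlap.

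Genes that act with these 10 were read from lists. The lists were chosen with earlier results of these data known, so their counts and adjusted p-values are a description. Between the diets, 9.68% of all 11938 tested genes were called higher and 7.75% lower. Some genes are in several lists, such as Csf2rb, Mertk, Batf3, Clec10a and Itgax, and are counted in each. The counts and adjusted p-values below are from the edgeR fit of the CD4+ groups alone. In the edgeR fit of all 4 groups together 0 genes of any list were called between the diets, among them 0 of 22 identity genes (15 at an unadjusted p under 0.05), and Fcgr1 had an adjusted p of 0.331. Of 5 tested ligands and receptors, 3 rose on the elemental diet. Cx3cl1, which encodes fractalkine, the ligand of CX3CR1, rose from 4.53 ± 1.16 to 10.3 ± 2.49 CPM and was higher in 6 of 6 libraries. Its log2 fold change was 1.19 ± 0.21 (adjusted p = 0.00199). Csf2ra and Csf2rb, the chains of the GM-CSF receptor, rose by 1.16 ± 0.27 (adjusted p = 0.00944) and 1.23 ± 0.32 (adjusted p = 0.0159). Csf1, the ligand of CSF1R, averaged 2.98 ± 0.668 CPM on the conventional and 2.39 ± 0.504 CPM on the elemental diet, a difference that missed the threshold (-0.32 ± 0.26, adjusted p = 0.387). Csf3r was not called either (1.02 ± 0.56, adjusted p = 0.211). Il34, the other CSF1R ligand, had no read in any elemental library and at most 13 reads in a conventional one.

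Among 16 complement partners and receptors in the tables, 9 were tested, 4 rose and 0 fell, with a median log2 fold change of 0.98 against -0.01 over all genes. C3ar1, the receptor of the fragment C3a, rose from 2.81 ± 1.60 to 13.2 ± 7.23 CPM (2.23 ± 0.44, adjusted p = 0.00454). C5ar1 rose by 1.87 ± 0.42 (adjusted p = 0.00828) and the properdin gene Cfp by 1.00 ± 0.22 (adjusted p = 0.00795). The proteases that C1q activates were hardly read: C1ra averaged 0.112 CPM on the elemental diet and 0.192 CPM on the conventional diet, and C1s1 had no read in any conventional library. Vsig4, a complement receptor of resident macrophages in other organs, had no read in any CD4+ library.

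Of 20 tested genes of macrophage identity, 17 rose and 0 fell, with a median of 1.29. Fcgr1, the high-affinity IgG receptor that separates macrophages from dendritic cells, rose from 1.29 ± 0.633 to 10.9 ± 5.50 CPM (3.06 ± 0.37, adjusted p = 0.00014). Ms4a7, a membrane protein of macrophages, rose by 2.45 ± 0.37 (adjusted p = 0.000971). Mertk, a kinase receptor for the uptake of dying cells, rose by 2.24 ± 0.38 (adjusted p = 0.00138). Of 10 tested transcription factors of the lineage, 5 rose and 1 fell. Nr1h3, which encodes the sterol receptor LXR alpha, rose by 1.43 ± 0.25 (adjusted p = 0.00186) and Batf3, a factor of dendritic cells, by 1.26 ± 0.25 (adjusted p = 0.00382). Cebpa fell by 0.61 ± 0.14 on the log2 scale (adjusted p = 0.00737), from 86.2 ± 14.1 to 56.5 ± 10.7 CPM.

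Uptake genes went both ways. Of 11 tested, 8 rose and 2 fell. Gas6, a bridging ligand of MERTK, rose from 0.914 ± 0.522 to 4.44 ± 1.48 CPM (2.30 ± 0.43, adjusted p = 0.00282), and Slc40a1, the iron exporter, rose by 1.69 ± 0.36 (adjusted p = 0.00653). Hmox1 and Mfge8 fell, with adjusted p = 0.0465 and 0.0462, calls that were each lost in 14 of 23 alternatives. Of 13 tested myeloid chemokines and cytokines 5 rose and 0 fell. Cxcl16 rose by 1.81 ± 0.30 (adjusted p = 0.00125). Ccl6 (1.66 ± 0.51, adjusted p = 0.0415) and Pf4 (1.60 ± 0.51, adjusted p = 0.0410) lost their calls without most single libraries. The count of this list was 2 when conventional replicate 1, 2 or 5, or replicate 1 or 5 of the elemental group, was left out, and 3 without replicate 4 of either diet.

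Markers of other cells moved in the same libraries. Dendritic cell markers rose in 6 of 10 conventional and 5 of 8 plasmacytoid markers, among them Clec9a (1.85 ± 0.36, adjusted p = 0.00328) and Siglech (1.60 ± 0.29, adjusted p = 0.00212). The other conventional markers tested were not called. Xcr1 (-0.79 ± 0.51, adjusted p = 0.282), Ccl22 (-0.19 ± 0.41, adjusted p = 0.765) and Flt3 (-0.17 ± 0.42, adjusted p = 0.793) were lower on the elemental diet. Zbtb46 was higher (0.66 ± 0.74, adjusted p = 0.551). The other plasmacytoid markers were not called either. Ly6d (0.48 ± 0.20, adjusted p = 0.107) and Tcf4 (0.30 ± 0.21, adjusted p = 0.317) were higher on the elemental diet. Pacsin1 was lower (-0.27 ± 0.17, adjusted p = 0.264). Monocyte markers rose in 3 of 4, with Ly6c2 at 1.15 ± 0.24 (adjusted p = 0.00707) and Plac8 at 1.53 ± 0.33 (adjusted p = 0.0103). The call of Treml4 (1.96 ± 0.64, adjusted p = 0.0453) was lost in 14 of 22 alternatives. Ccr2 was not called (-0.25 ± 0.18, adjusted p = 0.357), and Vcan, Chil3 and F13a1 were too low to be tested. In the eosinophil and mast cell list, Prg2, an eosinophil granule protein gene, fell by 1.41 ± 0.41 on the log2 scale (adjusted p = 0.0300), a call lost in 8 of 23 alternatives, and the stem cell factor receptor gene Kit rose by 0.60 ± 0.15 (adjusted p = 0.0123). The mast cell protease genes Mcpt1 and Mcpt2 had no read in any elemental library and were not tested. On the conventional diet they averaged 1.54 ± 1.69 and 1.56 ± 0.841 CPM, with 0 to 103 and 0 to 48 reads per library. Of 3 tested stromal and endothelial markers 1 changed: Cxcl13, which encodes a B cell chemokine, fell from 4.74 ± 1.71 to 1.19 ± 0.683 CPM (-1.98 ± 0.40, adjusted p = 0.00454). The summed level of 8 neutrophil markers was at most 0.911 CPM, and none could be tested. Epithelial markers rose in 5 of 14 and fell in 0, with a median log2 fold change of 1.49 over the 14. The count was 4 to 11 when single libraries were left out (11 without conventional replicate 6). It was 5 to 13 in the other alternatives, apart from the fit of all 4 groups. The epithelial sum ran from 94.5 to 1410.3 CPM on the conventional and from 1048 to 2344 CPM on the elemental diet. In 3 of 9 B cell markers (0 without conventional replicate 4, 1 without conventional replicate 5) and 3 of 6 plasma cell markers the level fell. The sum of B cell markers ran from 342 to 652 CPM and from 195 to 446 CPM, and that of plasma cell markers from 921 to 1963 CPM and from 395 to 867 CPM. T cell core genes, which define the sort, summed to 4640.0 to 5257 CPM and 4189 to 4820 CPM, and 5 of 12 fell (3 when conventional replicate 1 or 5, or replicate 4 or 6 of the elemental group, was left out). What part these other markers have in the macrophage levels was not tested. In 5 of 6 conventional libraries both the epithelial sum and C1qa were lower than in every elemental library. Conventional replicate 6, singled out after its values were seen, had an epithelial sum of 1410.3 CPM, above 2 elemental libraries, and 51.3 CPM of C1qa, below all of them.

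**Figure D3:**
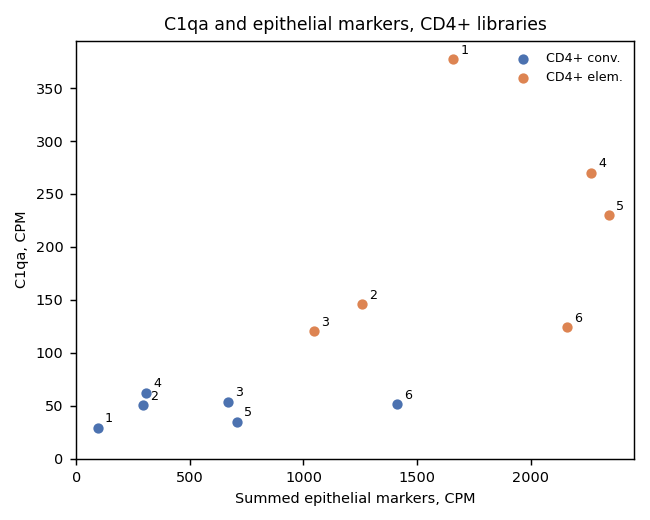
C1qa (CPM) against the summed level of 14 epithelial markers (CPM) in the 12 CD4+ libraries, numbered by replicate. The conventional libraries other than replicate 6 are below every elemental library on both axes; replicate 6, at 1410.3 CPM of epithelial markers, is below them in C1qa alone.

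Within a diet, other myeloid transcripts followed C1q from library to library. After centring log2 CPM on the mean of each diet, Pearson's r with the mean of the C1q chains was ranked over 10315 genes and 12 libraries, as a description. These libraries share the sort, and why genes varied with C1q was not tested. The nearest genes outside the set were Ms4a7 (r = 0.98), Npl (0.95), Lpcat2 (0.94), Fcgr3 (0.94), C130050O18Rik (0.93), Fcgr4 (0.93), Aif1 (0.92) and Ms4a6c (0.92). Fcgr3 and Fcgr4 encode IgG receptors, and Aif1 encodes the macrophage protein IBA1. Among the set, Adgre1 ranked 10 (0.92), Cx3cr1 18 (0.90), Ccl24 42 (0.83), Csf1r 94 (0.74) and Timd4 349 (0.59). Mrc1 and Cd163 were below the minimum of 2 CPM for this ranking.

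The CD44+ and CD44- libraries both held macrophage transcripts, at levels that overlapped for all 10 genes. C1qa ran from 30.7 to 118 CPM (median 108) in CD44+ and from 8.52 to 129.5 CPM (median 38.7) in CD44- libraries. C1qb ran from 42.5 to 135 CPM (median 109) and from 16.0 to 139.7 CPM (median 47.8), and C1qc from 25.8 to 93.1 CPM (median 68.0) and from 6.12 to 101 CPM (median 31.1). The log2 fold changes (CD44+ minus CD44-) were 0.44 ± 0.55, 0.44 ± 0.51 and 0.33 ± 0.57, each smaller than its SE. The spread within CD44- cells was wide. Replicates 6, 7 and 8 had 129.5, 106 and 95.4 CPM of C1qa, and the other 4 libraries had at most 38.7 CPM. CD44- replicate 2 was lowest for 8 of the 10 genes and CD44- replicate 6 highest for 8.

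Mrc1 was among the more abundant of the genes in these libraries. It ran from 19.4 to 93.7 CPM (median 60.0) in CD44+ and from 5.51 to 102.8 CPM (median 33.2) in CD44- cells. Cd163 ran from 1.48 to 5.36 CPM (median 2.64) and from 0.334 to 6.68 CPM (median 2.31). Adgre1 ran from 10.2 to 41.7 CPM (median 27.4) and from 2.73 to 47.3 CPM (median 13), and Csf1r from 9.94 to 60.1 CPM (median 35.5) and from 5.96 to 69.4 CPM (median 17.7). Cx3cr1 ran from 3.60 to 7.46 CPM (median 4.55) and from 0.223 to 7.85 CPM (median 3.07). In these libraries 80.1% (CD44+) and 74.3% (CD44-) of Cx3cr1 gene reads lay in introns, a span that other genes share. Over all genes, the intron share of a library was 20.6 to 29.0% in CD44+ and 9.4 to 27.0% in CD44- libraries. Both groups were above the CD4+ libraries in this share, and its wide range within CD44- cells is a limit of the CD44 comparison. The log2 fold changes of these receptor genes lay between 0.02 ± 0.61 for Cd163 and 0.32 ± 0.59 for Mrc1.

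Ccl24 and Timd4 were nearly unread. Ccl24 had 1 to 6 reads per CD44+ library and 0 to 5 per CD44- library, and Timd4 had no read in 4 of 7 CD44+ and 5 of 7 CD44- libraries and at most 11. Neither passed the filter. The library with 0 Ccl24 reads, CD44- replicate 5, allows up to 0.331 CPM, counting error only. Of the 8 genes tested, edgeR called 0, with 0 at an unadjusted p under 0.05 and 0 with DESeq2 or limma-voom. In this comparison 0.767% of 8343 genes were called. Of the same genes, 0.3% were called higher, 0.467% were called lower, and 0.396% were higher without overlap. The SEs of the 8 genes, 0.51 to 0.66 on the log2 scale, were each larger than the difference.

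Genes around the set had few calls in this comparison. Of 22 tested identity genes 1 rose in CD44+ cells: Tyrobp, a signalling adaptor that natural killer cells also express, went from 26.8 ± 19.6 to 197 ± 72.8 CPM (2.88 ± 0.51, adjusted p = 0.00912). The complement (10 tested), transcription factor (9), uptake (14), chemokine (17) and ligand and receptor (3) lists had 0 calls in either direction with edgeR on the CD44 groups. DESeq2 called 1 transcription factor, and the edgeR fit of all 4 groups called 3 transcription factors and 1 ligand or receptor gene higher. At an unadjusted p under 0.05 there were 3 transcription factors and 0 genes of the other lists. Plac8 was called among 6 monocyte markers (2.26 ± 0.43, adjusted p = 0.0133), and Cox6a2 and Ly6d among 7 plasmacytoid markers. The plasma cell genes Mzb1 and Jchain were called higher in CD44+ cells (2.58 ± 0.48 and 2.32 ± 0.46, adjusted p = 0.0122 and 0.0193), and summed plasma cell markers ran from 3840.3 to 8084 CPM in CD44+ and from 397 to 3134 CPM in CD44- libraries. T cell core genes summed to 11854 to 15108 CPM in CD44+ and 9196 to 15935 CPM in CD44- libraries. With edgeR on the CD44 groups 0 of 12 were called (4 at an unadjusted p under 0.05), and DESeq2 called 1. The edgeR fit of all 4 groups called 2 higher and 1 lower. Cd4 averaged 38.8 ± 22.2 CPM in CD44+ and 166 ± 157 CPM in CD44- libraries. It was not called by edgeR on the CD44 groups (-2.10 ± 0.57, adjusted p = 0.095).

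C1q and the uptake receptor Mrc1 went together across the CD44 libraries. Per kilobase, Mrc1 stood at 13.9 ± 2.05% of C1qa in CD44+ (SD, n = 7) and 14.8 ± 1.66% in CD44- libraries (n = 7). In the CD4+ libraries the same measure was 0.466 ± 0.347% on the conventional and 0.198 ± 0.0363% on the elemental diet (n = 6 each). Timd4 stood the other way, at 1.02 ± 0.598% and 0.916 ± 0.310% of C1qa in the CD4+ groups and at 0.0909 ± 0.196% and 0.0377 ± 0.0646% in the CD44 groups. C1qb made up 37.9 ± 2.94% and 39.1 ± 6.40% of C1q reads per kilobase in CD44+ and CD44- libraries. These values are set side by side without a test, because population, RNA amount and kit differ together between the pairs.

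**Figure D4:**
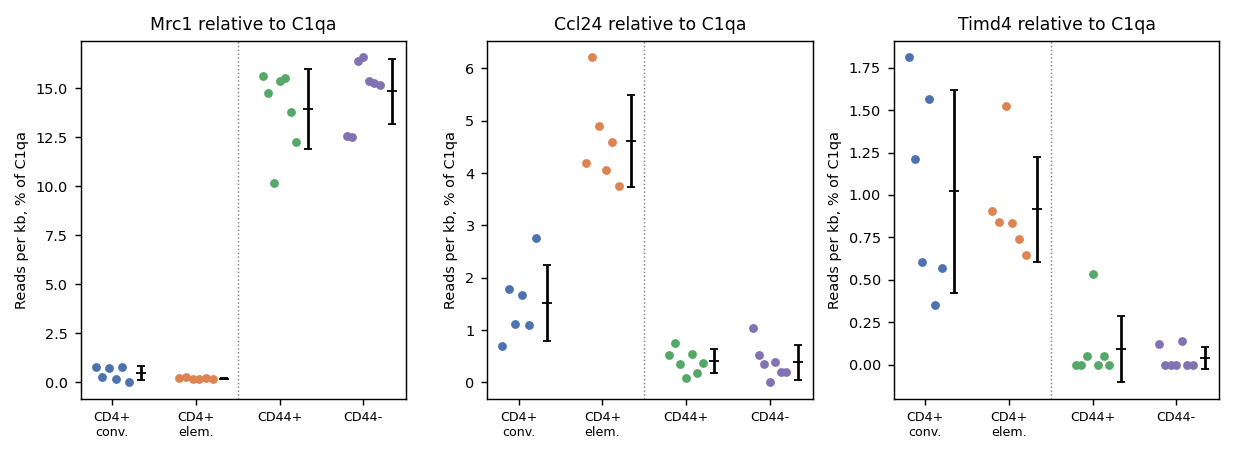
Mrc1, Ccl24 and Timd4 reads per kilobase as a percentage of C1qa in the same library (points), with the group mean and SD beside them; the dotted line separates the kits. Mrc1 averages 0.198% of C1qa on the elemental diet and 13.9% in CD44+ cells, and Ccl24 averages 4.62% on the elemental diet and 1.52% on the conventional diet.

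**Figure D5:**
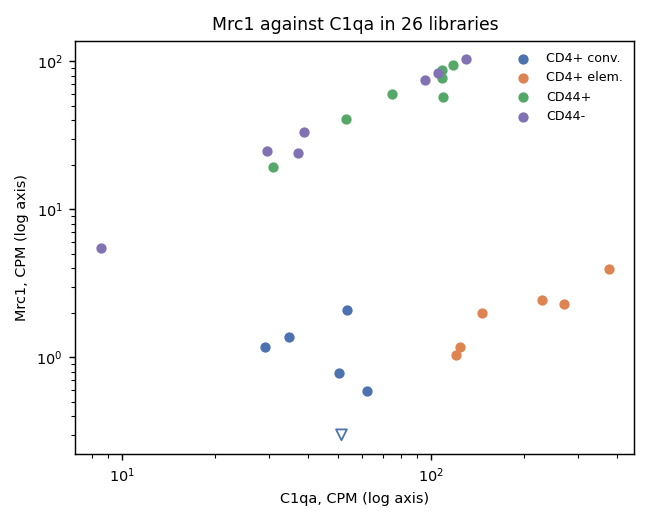
Mrc1 against C1qa in 26 libraries (CPM, both axes logarithmic; the open triangle is the library with 0 Mrc1 reads, drawn at 0.3). The 14 CD44 libraries run along a diagonal from 8.52 to 129.5 CPM of C1qa, and the 12 CD4+ libraries lie at or below 3.93 CPM of Mrc1.

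Within the CD44 groups most genes of the set had higher r values with C1q than within the diet groups, but mostly not better ranks. C1qb itself ranked 42 (r = 0.99) here and 2 (0.99) within the diet groups, and Cx3cr1 ranked 18 there. Over 14 libraries and 9579 genes, after centring on each group, the genes outside the set with the highest r included Ccl2 (r = 0.997), Plxnb2 (0.996), Pf4, Pik3ap1, Cd36, Fosb and Lrrc25. Ccl2 and Pf4 encode chemokines, and Cd36 encodes a scavenger receptor. Adgre1 ranked 11 (0.99), Mrc1 37 (0.99), Csf1r 91 (0.97), Cd163 134 (0.95) and Cx3cr1 174 (0.94). The 15.2-fold range of C1qa among CD44- libraries enters each of these values.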

How the data were processed

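For each of 26 libraries the deposited table lists 25814 genes with raw counts of exon, intron and total gene reads, per the file headers. Coordinates are on GRCm38, a build named in the submitters' processing notes. Aligner and counter: not given in the sources used here. Exon totals were analysed, and 3759 genes with an exon length of 0 hold none. Each pair of groups was fitted on its own with edgeR 4.0.16 in R 4.3.3: filterByExpr, TMM scaling and the two-sided quasi-likelihood test with robust estimation, Benjamini-Hochberg adjusted over all genes tested, called under 0.05. SEs were obtained as the absolute log2 difference over the root of the F statistic. DESeq2 1.42.0 and limma 3.58.1 were alternatives. Log2 CPM for likeness used a prior count of 2. The edgeR fit was also run on simulated counts in which every gene had the same dispersion and no library stood apart. The spread between the real libraries was therefore not simulated. No libraries were duplicates (lowest chi-square per degree of freedom 11.9 within a group).

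The 10 genes, the lists and the alternatives were chosen with earlier results of these data known. The named genes are all 10, every ligand and receptor, up to 3 called increases and 3 decreases per list by size, and the 8 most alike; 1 gene is not reported here. Genes at 0 reads, single genes from the complement list, and library exceptions were named after their values were seen. So were uncalled dendritic cell and monocyte markers, and Cd4 in the CD44 pair. Itgam and one eosinophil marker had no row under the name searched.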

Additional observations from a re-analysis of the deposited data

Results flagged for a closer look

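In 2 of 40 sets of values (10 genes in 4 groups), 1 library stood far from the others of its group by Dixon's criterion, which chance flags in about 1 of 20 groups. Both were Timd4, in groups where most libraries had no read of it. CD44+ replicate 5 was at 1.31 CPM, from 11 reads, and the next library was at 0.120 CPM. CD44- replicate 6 was at 0.3795 CPM, from 3 reads, and the next was at 0.0960 CPM. Both libraries were also the highest of their group for C1qa, C1qb, C1qc, Csf1r and Mrc1.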

How the results depend on the processing

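The count of called macrophage genes was 8 in 22 of 23 diet alternatives and 0 in 24 of 24 CD44 alternatives. The exception was the diet contrast in a fit of all 4 groups together, with 0 called and log2 fold changes from 1.10 to 3.64. Over all genes, the diet count of 2081 became 2 in that fit, 4095 with limma-voom and quality weights, 3379 without conventional replicate 6 and elemental replicate 1 together, and 1299 to 3865 without single libraries (1299 and 3865 when conventional replicates 4 and 6 were dropped in turn, 1316 when elemental replicate 4 was). Without a scaling factor 45.0% of diet calls were higher, against 55.6% with TMM, and the median of all genes moved to -0.13; the 8 genes stayed called and higher. The CD44 count of 64 became 401 with DESeq2, 101 with total gene reads, 37 with the replicate block, 1748 with all 4 groups, and 36 to 87 without single libraries (36 without CD44+ replicate 5 or 7, 37 without CD44+ replicate 6, 41 without CD44- replicate 4). In the CD44 pair, Cd163 had a log2 fold change of -0.81 with total gene reads, uncalled. The cause of these shifts was not tested. Same-numbered libraries correlated between -0.142 and 0.271 (diet) and between -0.042 and 0.115 (CD44). These values cannot show whether such libraries shared an animal. The CD44+ and CD44- libraries carry the same numbers, with the same number missing from both. The main fits did not take the numbers as pairs, and the replicate block was an alternative. With it the diet count was 2033, and 0 of 8 macrophage genes were called in the CD44 pair. With that block Pf4, Ccl6, Jchain, Cd22, Prg2, Treml4 and Hmox1 lost their diet calls. Low counts limit Ccl24 and Timd4 in the CD44 groups and Mrc1 and Cd163 in the CD4+ groups.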
